A study of Mus musculus with 9 samples.

Results

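The transcripts described here are those of Pum2 and Pum3, members of the Pumilio family of RNA-binding proteins, and of Nanos1, Nanos2 and Nanos3, the zinc-finger proteins that act with Pumilio. The 5 genes were chosen by name. Each had exactly 1 feature on the array that carried its symbol and no other, so that they form 5 of the 22180 genes with a name of their own, and all 5 were tested. Cortices were dissected from CD1 mouse embryos of wild-type genotype, aged embryonic days 12 to 13. Their RNA was measured as total input with no antibody, after precipitation with normal rabbit IgG, which gives the background of the method, and after precipitation with a rabbit antibody to Pum2, with 3 arrays in each group, labelled as biological replicates. The series is titled for a repressive translational complex in neural stem cells, and the precipitation asks which RNAs are held with Pum2 protein. All 9 samples share genotype, strain, age and tissue, so the groups differ in the antibody step alone as far as the labels say, and the labels do not say how many embryos were pooled for a replicate.

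Pumilio proteins bind short elements that begin with UGUA, mostly in the untranslated 3' ends of mRNAs, and lower the translation and stability of what they bind. They do so largely by bringing in the Ccr4-Not complex, which shortens poly(A) tails. Nanos proteins do not select targets alone: they clamp onto Pumilio bound to RNA, widen the choice of sites and bring in the same deadenylase. Pum2 is made in many tissues and is abundant in neurons and neural precursors. Pum3 carries related repeats but is a nucleolar protein of ribosome assembly. Nanos2 and Nanos3 are best known from germ cells, and Nanos1 has been described in the developing brain as well. Transcripts of Pumilio genes have been reported among the RNAs that Pumilio proteins bind.

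Values are log2 signals as deposited, on which a difference of 1 is a change of 2-fold. A gene was called where limma's adjusted p over all 22180 genes lay below 0.05. The arrays carry no call of detection, and signals of different genes depend on their probes, so that each gene is compared across groups and not with another gene. Over all genes, Pearson r between arrays of the same group lay between 0.9938 and 0.9964. A listed gene counts as measured here where a feature carries its symbol alone. The 1814 features with several symbols were not read, so other listed genes, some of which lie on such features, were not analysed here. For the labelled tissue, the 13 of 14 listed markers of cortical precursors and neurons that were measured lay between 7.99 and 11.10 as means over 9 arrays, where the median gene lay at 6.08. The 6 meningeal, 6 endothelial and 3 erythroid markers measured all lay at or above the median as well, so these levels do not single out the cortex. Markers of meninges and endothelium were measured too: of 6 and 6, 4 and 3 were called higher over IgG on the Pum2 arrays, and 0 and 0 lower, also at an unadjusted p under 0.05. The meningeal list averaged 7.14 to 7.19 on the input arrays, 7.25 to 7.61 with IgG and 7.86 to 7.93 with Pum2, and the endothelial list 7.62 to 7.76, 7.67 to 8.01 and 8.32 to 8.39. Of 8 microglial markers 3 were higher with Pum2 than with IgG, of 5 markers of the ganglionic eminences 1, and of 3 erythroid markers 0 (also 0 unadjusted). None of these was lower over IgG, adjusted or not. The endothelial count was 5 without IgG replicate 3, the microglial one 1 without IgG replicate 1 or any 1 Pum2 array, and that of the eminences 2 without Pum2 replicate 1. Over input, where Nanos3, Pum2 and Nanos1 were called, 6 of 6 meningeal and 5 of 6 endothelial markers were higher and 0 lower, also unadjusted, counts that were the same without any 1 array. Of the 13 cortical markers 10 were higher and 1 lower over input, and 5 higher and 1 lower over IgG. With 1 array left out the higher counts were 7 to 10 and 5 to 6. Of all genes, 21.6% were called higher over input and 19.4% over IgG. In a fit of genes at or above the median level only, 65.4% were called over input and 60.2% over IgG. Of these calls 62.8% and 65.1% were higher. There the cortical list gave 10 higher and 1 lower over input, and 6 and 2 over IgG. The meningeal list gave 6 and 0, and 4 and 0, and the endothelial list 5 and 0, and 6 and 0. In the fit of all genes, 3 of the microglial and 2 of the eminence markers were higher over input, which became 0 to 3 and 1 to 2 with 1 array left out. Of the 3 erythroid markers 2 were lower over input, the embryonic globin genes Hba-x (-1.17 ± 0.31, adjusted p = 0.014) and Hbb-y (-0.36 ± 0.13, adjusted p = 0.0496). That count was 0 without Input replicate 2 or Pum2 replicate 3, and 1 without Input replicate 3, IgG replicate 1, IgG replicate 3 or Pum2 replicate 1. The erythroid list averaged 8.65 to 9.12 on the input arrays, 8.45 to 9.30 with IgG and 8.17 to 8.83 with Pum2, so the groups overlapped. The part of other cell types in the values below was not tested, and log2 array signals have no true zero.

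Against IgG, 2 of the 5 transcripts passed the test: Pum2 was higher and Nanos3 lower in the Pum2 precipitate. Of all genes, 30.7% were called in this comparison, 19.4% higher and 11.4% lower (63.0% of the calls were higher, and 49.7% with arrays centred on the brighter genes), so a count of 2 of 5 is near the background and says nothing about the family. Against input 3 of the 5 were called, Pum2 and Nanos1 higher and Nanos3 lower, where 34.7% of all genes were called, 21.6% higher and 13.1% lower. In IgG over input Pum2 alone of the 5 was called, as higher, where 18.0% of all genes were called, 8.25% higher and 9.72% lower. Neither count stands apart from the background. The comparisons share arrays, so their calls are not independent of one another. Nanos3 is described first, since its differences were the largest in size of the 5 in both Pum2 comparisons.

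**Figure D1:**
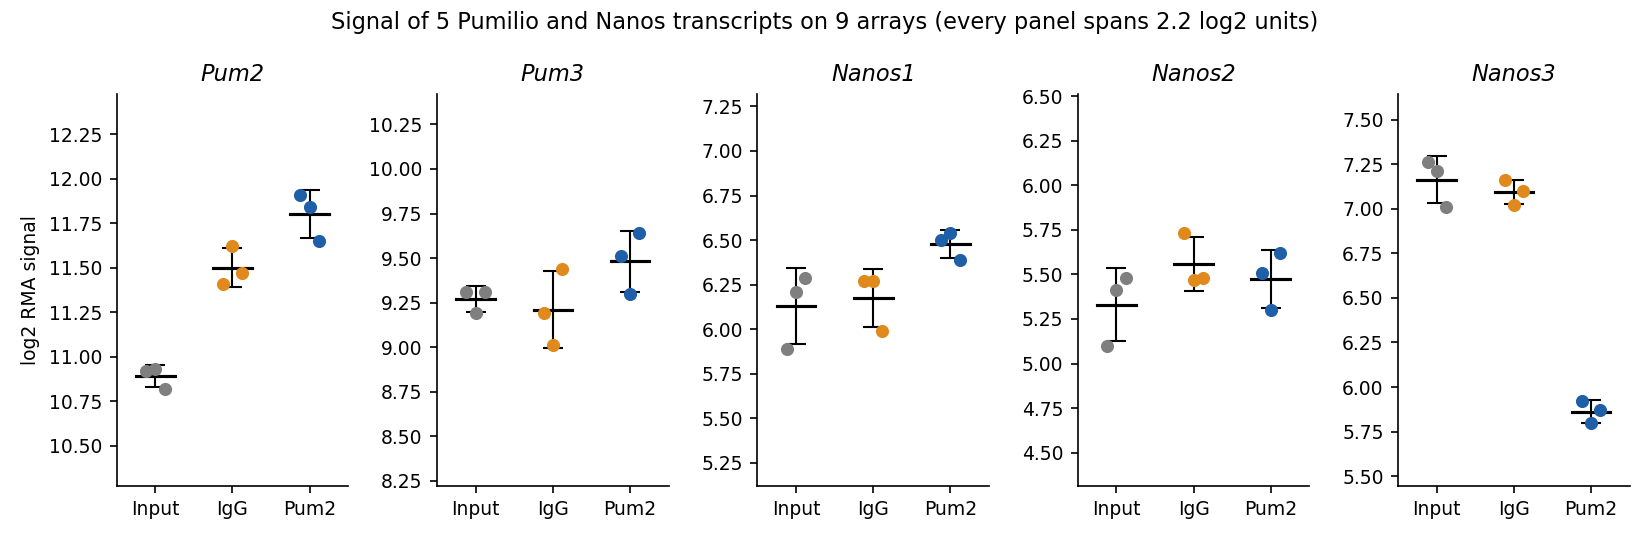
Log2 signal of Pum2, Pum3, Nanos1, Nanos2 and Nanos3 on the 9 arrays. Points are arrays, horizontal bars are group means and whiskers are SD (n = 3), and every panel spans the same number of log2 units. Nanos3 on the Pum2 arrays (5.80 to 5.92) lies below all other arrays (7.01 to 7.26), and Pum2 steps up from input over IgG to the Pum2 arrays.

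Nanos3, known for keeping primordial germ cells alive, fell in the Pum2 precipitate. Its signals were 7.26, 7.21 and 7.01 on the input arrays, 7.16, 7.02 and 7.10 with IgG, and 5.92, 5.80 and 5.87 with Pum2. The Pum2 arrays lay wholly below the other 6, and the input and IgG arrays overlapped. Of all genes, 15.4% lay wholly below in Pum2 over IgG and 16.8% in Pum2 over input. The group means were 7.16 ± 0.13, 7.09 ± 0.07 and 5.86 ± 0.06 (SD, n = 3 each). The difference was -1.23 ± 0.09 from IgG (log2 difference ± standard error, limma adjusted p = 8.18e-06, 2.35-fold lower) and -1.30 ± 0.09 from input (adjusted p = 2.73e-06, 2.47-fold lower). IgG and input differed by -0.07, with a 95% interval from -0.26 to 0.12 (adjusted p = 0.649). Among 22180 genes the difference from IgG was the 227th lowest, and 1.02% of genes had a lower one. Against input it was the 384th lowest.

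Nanos1, the member described in the developing brain, was higher with Pum2 than in input. Its input signals were 5.89, 6.21 and 6.29, its IgG signals 6.27, 6.27 and 5.99, and its Pum2 signals 6.50, 6.54 and 6.39. Every Pum2 array was above every other array, by a narrow margin. Of all genes, 25.9% lay wholly above in Pum2 over IgG and 28.5% in Pum2 over input. The difference from input was 0.35 ± 0.12 (adjusted p = 0.0442, 1.27-fold), and the one from IgG was 0.30 ± 0.12 and missed the threshold (adjusted p = 0.0831, 95% interval 0.04 to 0.57), which it passed without Input replicate 1 (0.30, adjusted p = 0.0412) and among brighter genes only (0.30, adjusted p = 0.0344). The call against input was weak. It ended without Input replicate 1 (0.23), Input replicate 2 (0.39), IgG replicate 1 (0.35), IgG replicate 2 (0.35), Pum2 replicate 1 (0.34), Pum2 replicate 2 (0.32) or Pum2 replicate 3 (0.39), and with arrays centred on the brighter genes (0.30). IgG and input differed by 0.05, with an interval from -0.22 to 0.31.

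Nanos2, a repressor that holds male germ cells on their path, showed no call in any comparison. Its signals were 5.10, 5.41 and 5.48 in input, 5.73, 5.47 and 5.48 with IgG, and 5.51, 5.30 and 5.62 with Pum2. The groups overlapped throughout. The differences were -0.08 (95% interval -0.37 to 0.20) for Pum2 over IgG, 0.14 (-0.14 to 0.43) for Pum2 over input and 0.23 (-0.05 to 0.51) for IgG over input. Its mean over 9 arrays, 5.45, was below that of the median gene, and it was the only one of the 5 transcripts for which this held. On the Pum2 arrays alone Nanos3, at 5.86, was dim as well, with 46.7% of genes below it. After the values were seen, the change of Nanos3 was set against those of its relatives. The tests of these pairs therefore describe the arrays and lend no independent support. Set against Nanos1 on the same arrays, its change from IgG to Pum2 was lower by 1.54 on the log2 scale, and set against Nanos2 it was lower by 1.15. In both pairs the 3 Pum2 arrays and the 3 IgG arrays did not overlap (two-sided exact permutation test, p = 0.1 each, the smallest that 3 against 3 arrays can give, and 0.15 adjusted over the 3 pairs of members compared).

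The germ cell genes give a setting for the low signals. Of 18 listed genes 17 were measured, and 4 of these had a mean at or above that of the median gene, with means from 3.49 to 9.81. In Pum2 over IgG 2 were higher and 0 lower (3 and 0 at an unadjusted p under 0.05), with a median of 0.07 beside 0.04 for all genes. Those called were Kit, a receptor kinase that is not limited to germ cells (0.66 ± 0.07), and Tfap2c, a transcription factor also made in cortical precursors (0.56 ± 0.09). Against input 5 were higher and 0 lower (5 and 0 unadjusted), with Prdm1, a repressor of the germ line and of other lineages, at 0.67 ± 0.16 among them and a median of 0.19. Nanos3, which is not on this list, fell, and no listed gene was called lower in either Pum2 comparison. Of all genes, 19.4% were called higher and 11.4% lower over IgG, and 21.6% and 13.1% over input. Most of the list lay below the median level, and whether it differs from Nanos3 was not tested. Without IgG replicate 3 the count of lower genes against IgG was 1.

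**Figure D2:**
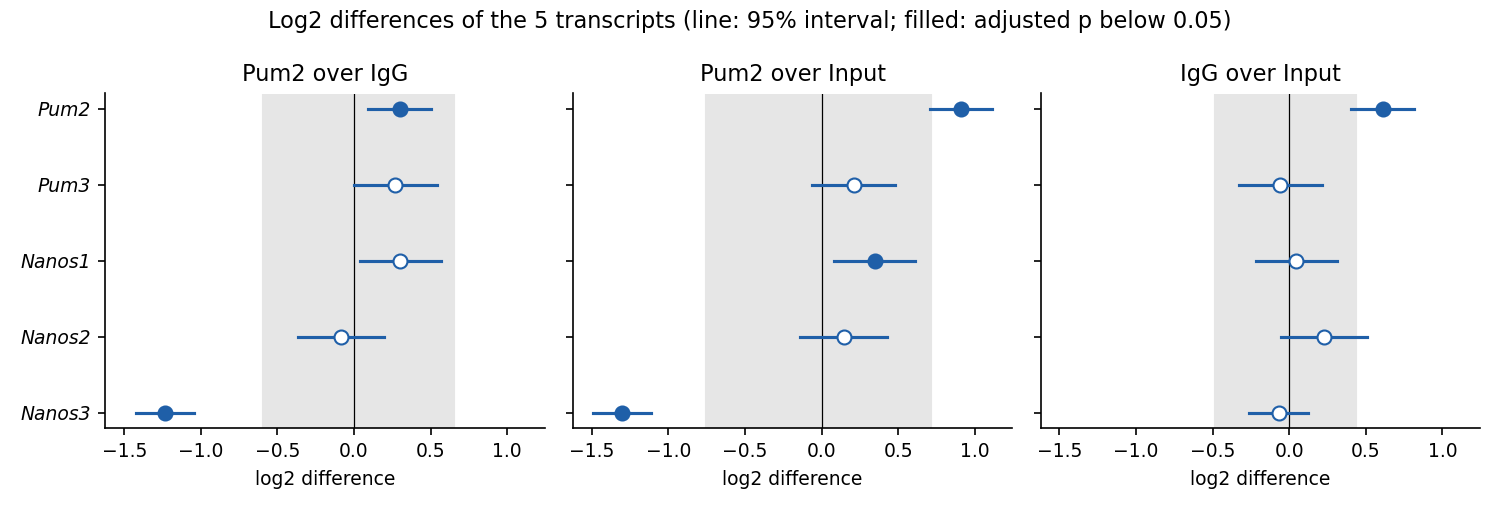
Log2 differences of the 5 transcripts in the 3 comparisons, with 95% intervals from limma. Filled points were called at an adjusted p below 0.05, and the grey band spans the 5th to the 95th percentile of all genes. Nanos3 lies below the band in both Pum2 comparisons (-1.23 and -1.30), and Pum2 lies above it over input (0.91) and in IgG over input (0.61) but inside it over IgG (0.30).

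Pum2, the transcript of the protein that was precipitated, had signals of 10.92, 10.93 and 10.82 in input, 11.41, 11.62 and 11.47 with IgG, and 11.91, 11.84 and 11.65 with Pum2. The 3 groups did not overlap, with means of 10.89 ± 0.06, 11.50 ± 0.11 and 11.80 ± 0.13 (SD, n = 3 each). Of all genes, 25.9% lay wholly above in Pum2 over IgG, 28.5% in Pum2 over input and 15.9% in IgG over input. The nearest arrays, IgG replicate 2 and Pum2 replicate 3, were close to each other. Over input the transcript rose by 0.91 ± 0.09 with the Pum2 antibody (1.88-fold, adjusted p = 3.41e-05), and 1.87% of genes had a higher difference. With nonspecific IgG it already rose by 0.61 ± 0.09 over input (1.53-fold, adjusted p = 0.00148), and 1.89% of genes had a higher one. The step from IgG to Pum2 was 0.30 ± 0.09 (1.23-fold, 95% interval 0.09 to 0.50, adjusted p = 0.0314). A higher difference was found in 19.9% of all genes. The call over IgG was lost when Pum2 replicate 1 (0.25) or 2 (0.28) was left out, or IgG replicate 1 (0.25) or 3 (0.29), with centring on the brighter genes (0.22), and with input left out of the fit (0.30).

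Pum3, the nucleolar relative, passed the test in none of the 3 comparisons, and over IgG it passed under 2 of 17 alternatives. Its signals were 9.31, 9.19 and 9.31 in input, 9.19, 9.01 and 9.44 with IgG, and 9.51, 9.30 and 9.64 with Pum2. The IgG arrays were spread over a wider range than the input arrays and overlapped both other groups. The differences were 0.27 ± 0.12 for Pum2 over IgG (adjusted p = 0.129, 95% interval -0.0014 to 0.54), 0.21 ± 0.12 for Pum2 over input (adjusted p = 0.225) and -0.06 ± 0.12 for IgG over input (adjusted p = 0.79). Without IgG replicate 3 the difference from IgG was 0.38 and passed the test (adjusted p = 0.0358). The intervals of Pum2 and Pum3 over IgG cover much the same range, and the changes of these transcripts differed by 0.03 on the log2 scale (two-sided exact permutation test, p = 1, 3 against 3 arrays). Over input the interval of Pum2 was 0.71 to 1.11 and that of Pum3 -0.06 to 0.48, and the difference between them was not tested.

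Other transcripts of ribosome assembly, the process in which Pum3 protein acts, were higher with Pum2 than with IgG in 11 of 19 cases (20 listed) and lower in 0 (11 and 2 at an unadjusted p under 0.05). Their median was 0.41, beside 0.04 for all genes and 0.12 for genes at or above the median level, where all 19 lay. With arrays centred on the brighter genes the counts were 9 and 2. Of all genes, 19.4% were called higher and 11.4% lower. In the fit of brighter genes only, 60.2% of genes were called, 65.1% of these higher, and the list gave 11 and 2. Rrp1, a nucleolar protein of large-subunit assembly, rose by 0.92 ± 0.10 (adjusted p = 1.01e-04) and Gnl3, which encodes the nucleolar GTPase nucleostemin, by 0.87 ± 0.09 (adjusted p = 8.4e-05). Against input the list went both ways, 8 higher and 4 lower with a median of 0.14. Of all genes, 21.6% were called higher and 13.1% lower there. Ncl, which encodes nucleolin, and Ebna1bp2, a factor of large-subunit assembly, stood at -0.66 ± 0.22 and -0.53 ± 0.10. The count of lower genes was 2 without Input replicate 1, Input replicate 2, any 1 IgG array or Pum2 replicate 2, and 1 without Input replicate 3. In IgG over input 0 were higher and 3 lower (0 and 5 unadjusted), with a median of -0.13 and with Nop16, a nucleolar protein, at -0.44 ± 0.08. Of all genes, 8.25% were higher and 9.72% lower in that comparison. Among brighter genes only, 41.6% were called, 45.2% of these higher, and the list gave 0 and 5. The difference of Pum3 over IgG, 0.27, was smaller than the median of this list.

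Subunits of Ccr4-Not, the deadenylase that Pumilio and Nanos bring to their targets, were split. Of 11 listed 9 were measured, and 5 were higher and 2 lower in Pum2 than in IgG, with a median of 0.27. Of all genes, 19.4% were higher and 11.4% lower. All 9 lay at or above the median level. In the fit of brighter genes only, 60.2% of genes were called, 65.1% of these higher, and the list gave 5 and 3. Cnot8, a catalytic subunit, rose by 0.83 ± 0.09 and Cnot11, a subunit of its accessory module, by 0.72 ± 0.10 (adjusted p = 1.14e-04 and 4.85e-04). Cnot4, a ubiquitin ligase, and Cnot6, the other kind of catalytic subunit, were lower, at -1.01 ± 0.08 and -0.84 ± 0.07 (adjusted p = 1.16e-05 and 2.65e-05). Against input 4 were higher and 3 lower (21.6% and 13.1% of all genes), with a median of 0.20. There Cnot10, a partner of Cnot11, was at 0.58 ± 0.09. Cnot6 was higher in IgG than in input (0.24 ± 0.07, adjusted p = 0.0464), opposite in sign to its difference in Pum2 over input (-0.60 ± 0.07). The other call in IgG over input was Cnot6l, a relative of Cnot6, at 0.28 ± 0.07, and both calls ended without Input replicate 1, IgG replicate 1 or IgG replicate 3, and 1 of them without any other single array. In that comparison 8.25% of all genes were higher and 9.72% lower.

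Further protein partners of Pumilio or Nanos, 18 genes and all measured, gave 6 higher and 4 lower in Pum2 over IgG, with a median of 0.10. Of all genes, 19.4% were higher and 11.4% lower, with a median of 0.04. The count of higher genes was 3 without Pum2 replicate 1. Eif4enif1, the gene of the eIF4E-binding repressor 4E-T, rose by 0.79 ± 0.09, and Trim32, one of the relatives of the fly Pumilio partner Brat, by 0.65 ± 0.08 (adjusted p = 1.23e-04 and 1.51e-04). The lowest were Pabpc1, the cytoplasmic poly(A)-binding protein, at -0.97 ± 0.08, and Snapin, reported as a partner of human NANOS1, at -0.97 ± 0.08 (adjusted p = 2.68e-05 and 2.48e-05). Against input 9 were higher and 2 lower (21.6% and 13.1% of all genes), with a median of 0.19. The 9 became 5 without Input replicate 1 or with centring on the brighter genes. Snapin stood at -1.40 ± 0.08 and Ddx6, an RNA helicase of repressed mRNAs, at 0.52 ± 0.10. In IgG over input 3 were higher and 2 lower (8.25% and 9.72% of all genes). Ago2, the microRNA effector (0.49 ± 0.07), and Trim2, another relative of Brat (0.44 ± 0.08), were among the higher. The lower were Snapin (-0.44 ± 0.08) and Trim32 (-0.31 ± 0.08), and Trim32 stood at 0.34 ± 0.08 in Pum2 over input. Dazl, a germ line partner of Pumilio, and Dnd1, one of Nanos, were at 4.05 and 5.21 over 9 arrays and were not called in any comparison.

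Transcripts reported elsewhere as Pumilio targets, against which the Pum2 transcript can be set, were higher in 9 of 14 cases (16 listed) and lower in 2 against IgG, with a median of 0.41. This list, like the other lists here, was drawn up with earlier results of these arrays known, so none is independent evidence of its direction. Of all genes, 19.4% were higher and 11.4% lower, and all 14 lay at or above the median level. In the fit of brighter genes only, 60.2% of genes were called, 65.1% of these higher, and the list gave 10 and 2. Cks2, a cyclin-dependent kinase subunit, rose by 1.00 ± 0.11 and Rheb, an activator of mTOR, by 0.95 ± 0.07 (adjusted p = 7.95e-05 and 1.24e-05). Vegfa, an angiogenic factor, and Atxn1, the gene of a spinocerebellar ataxia, were lower, at -0.47 ± 0.08 and -0.36 ± 0.09. Against input 10 were higher and 0 lower (11 and 0 at an unadjusted p under 0.05), with a median of 0.44 and with the Wnt receptor gene Fzd8 at 1.25 ± 0.07. Of all genes, 21.6% were higher and 13.1% lower there, with a median of 0.07. Among brighter genes only, 65.4% were called, 62.8% of these higher, and the list gave 11 and 0. The count of higher genes was 8 with centring on the brighter genes or quantile normalization, and 8 to 11 with 1 array left out. In IgG over input 6 were higher and 1 lower (8.25% and 9.72% of all genes). The pattern of E2f3, a cell-cycle transcription factor, was close to that of Pum2: 0.57 ± 0.07 in IgG over input, 0.34 ± 0.07 in Pum2 over IgG and 0.92 ± 0.07 in Pum2 over input. Rheb differed from both, since it was lower in IgG than in input (-0.53 ± 0.07).

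**Figure D3:**
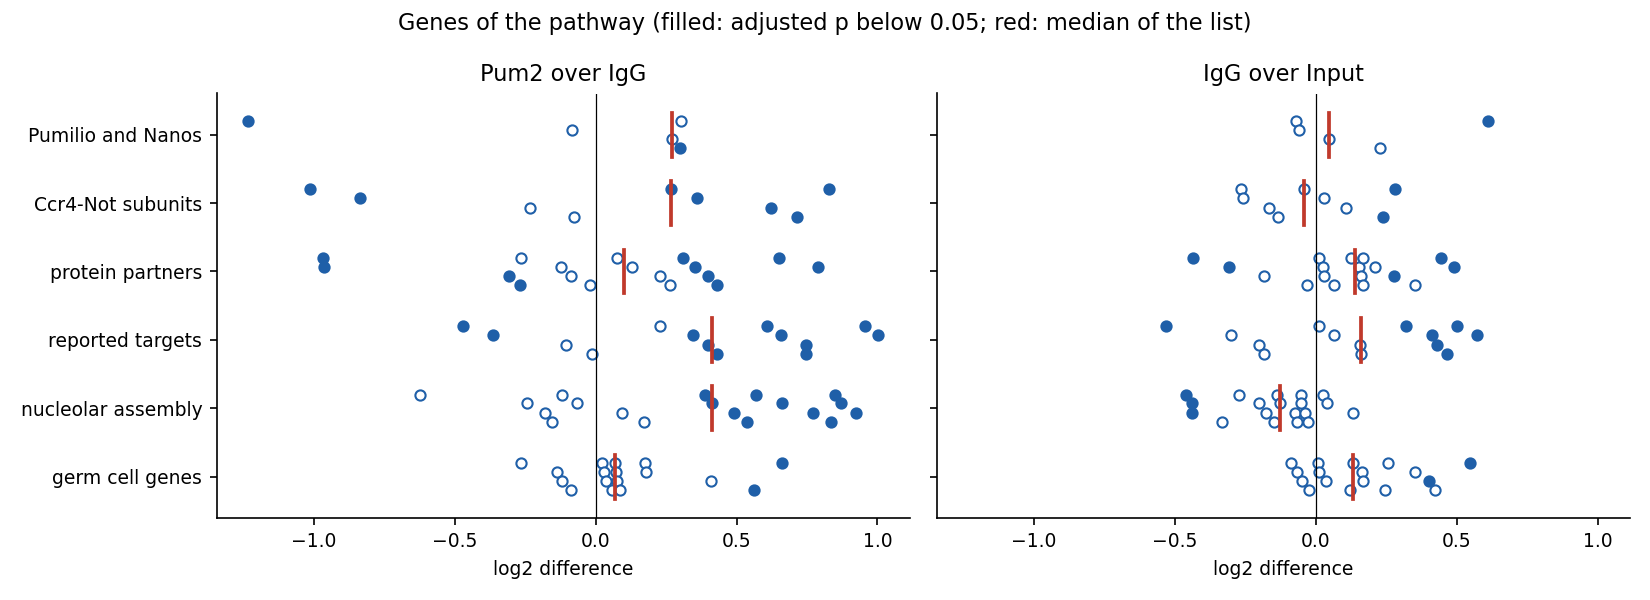
Log2 differences of the 5 Pumilio and Nanos transcripts and of 5 lists of related genes in Pum2 over IgG (left) and IgG over input (right). Points are genes, filled where called at an adjusted p below 0.05, and red lines are medians. Nanos3 at -1.23 is the lowest point of the left panel, and the reported targets and the nucleolar assembly genes have medians of 0.41 there.

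Across all 9 arrays, the genes with the pattern most like that of Pum2 were Ogfod1, a ribosomal protein hydroxylase, Sec16a, which organises sites of export from the endoplasmic reticulum, Nf1, a brake on Ras, Net1, a guanine nucleotide exchange factor, and E2f3. Their Pearson r with Pum2 lay between 0.993 and 0.994, among 6449 genes at or above the median level that varied by an SD of at least 0.2. The 9 arrays fall into 3 groups, which such an r mostly follows, and 10.5% of those genes had r above 0.9. Each of the 5 was higher in IgG than in input, by 0.36 to 0.57, and higher again in Pum2 than in IgG, by 0.22 to 0.34.

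The genes most like Nanos3 were Swt1, a nuclear RNA endonuclease, Armc1, an armadillo-repeat protein, Ugp2, an enzyme of UDP-glucose synthesis, Scarna10, a small RNA of Cajal bodies, and Snhg1, a host transcript of small nucleolar RNAs, with r of 0.994 to 0.998 over 9 arrays. Scarna10 and Snhg1 stood at -1.71 and -1.47 in Pum2 over IgG, and Swt1, Armc1 and Ugp2 at -0.58, -0.52 and -0.73. In IgG over input the 5 stayed within -0.16 and -0.02. Of the genes compared, 8.82% had r above 0.9 with Nanos3. For Pum3 the nearest were Sf3a3, a splicing factor subunit, Tars, a tRNA synthetase, Abcf1, Fam50a and Msn, with r of 0.933 to 0.959. For Nanos1 they were Susd2, Klf11, Ppm1h, Dhrs11 and Bag3, with r of 0.922 to 0.949. Only 0.434% and 0.093% of genes had r above 0.9 with Pum3 and Nanos1.

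**Figure D4:**
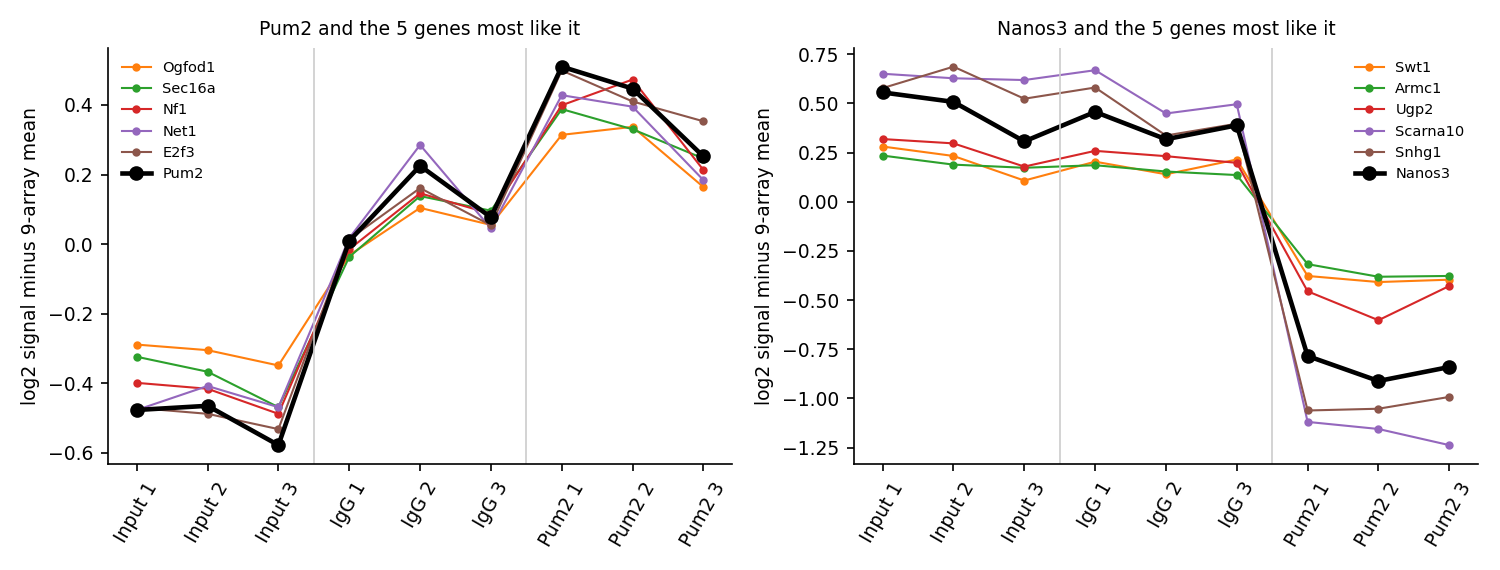
Log2 signal minus the mean of 9 arrays for Pum2 (left) and Nanos3 (right), in black, and for the 5 genes most like each. Lines join the arrays of 1 gene, in the order input, IgG, Pum2, and replicates have no order. The Pum2 set rises from input over IgG to Pum2, and the Nanos3 set is level from input to IgG and drops on the Pum2 arrays.

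Genes beside each member on the chromosome were set next to it. In the RefSeq annotation of GRCm38.p6, used for names and order alone since no source used here names the build behind the array values, 14 genes lay within 25 kb of a member and none overlapped one. Of these 12 were measured. Beside Nanos3, the gene 4930432K21Rik was higher in Pum2 than in IgG by 0.35 ± 0.10 (adjusted p = 0.0199). The microRNA genes Mir181d and Mir181c, whose products are regulators of many neural and immune transcripts, differed by -0.19 ± 0.10 and -0.43 ± 0.18 and were not called (adjusted p = 0.194 and 0.105). The Mir181c signals were 8.01, 7.76 and 7.39 with IgG and 7.28, 7.23 and 7.37 with Pum2, so the groups stood side by side without overlap, while the input arrays (7.65, 6.98 and 7.39) overlapped both. Of all genes, 15.4% lay wholly below in Pum2 over IgG. Whether a neighbour differed from the member itself was not tested.

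Beside Pum2, the heparan sulfate proteoglycan gene Sdc1 rose by 0.71 ± 0.07 over IgG (adjusted p = 6.84e-05), and the long noncoding RNA Gm4755 was not called (0.16 ± 0.15). In IgG over input Sdc1 was at -0.18 ± 0.07 and not called (adjusted p = 0.12), where Pum2 rose by 0.61. Beside Pum3, the noncoding RNA C030016D13Rik fell by 0.81 ± 0.12 from IgG (adjusted p = 4.73e-04). Its signals were 5.14, 5.13 and 5.10 with IgG and 4.45, 4.17 and 4.31 with Pum2, without overlap. In this direction 15.4% of all genes showed no overlap. Beside Nanos1, the translation factor gene Eif3a was not called (-0.27 ± 0.10, adjusted p = 0.0794) and Snora19, a small nucleolar RNA that lies within it, was lower (-0.65 ± 0.10, adjusted p = 5.69e-04). Beside Nanos2, the neuronal splicing factor gene Nova2 and the corepressor gene Irf2bp1 rose by 0.43 ± 0.08 and 0.50 ± 0.13 (adjusted p = 0.00274 and 0.0172), while Mypop and Foxa3 were not called (0.18 ± 0.12 and 0.18 ± 0.10).

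**Figure D5:**
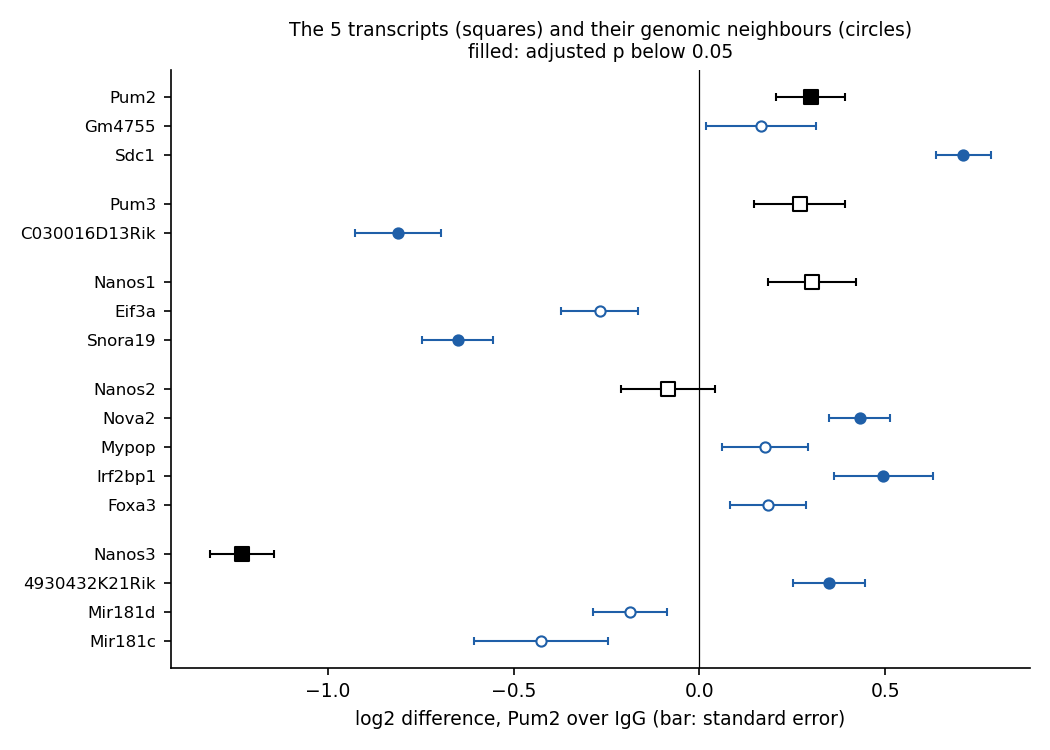
Log2 difference in Pum2 over IgG for the 5 transcripts (squares) and the measured genes within 25 kb of each (circles), with standard errors. Filled symbols were called at an adjusted p below 0.05. Nanos3 (-1.23) lies far below its 3 measured neighbours, which lie between -0.43 and 0.35.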

How the data were processed

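RNA from 9 samples was measured on Mouse Gene 2.0 ST arrays after amplification and biotin labelling, per the labels' protocols. The authors deposited log2 values made with RMA in Affymetrix Expression Console, per the submitters' processing notes (versions not given in the sources used here). RMA corrects background, normalizes between arrays and summarises probes, which can narrow large differences of dim probes. Of 41345 features, 23521 carry 1 symbol in the platform annotation, and each gene was read from its brightest feature (22180 genes). All 9 arrays were fitted with limma 3.58.1 in R 4.3.3, with 3 groups, 6 residual degrees of freedom and no replicate block, and p-values were adjusted by Benjamini-Hochberg over all genes. The code was tested on simulated data. Members, gene lists and tests were chosen with earlier results of these data known, and the set of neighbouring genes and the 3 pairs of members were added after seeing the values. Genes named from a list are those with the largest called differences, up to 2 in each direction and comparison. Likeness was Pearson r over 9 arrays among genes at or above the median level, with an SD of at least 0.2 and no provisional name. A p-value here measures spread between arrays labelled as biological replicates, and 3 against 3 arrays limit the precision. No sequence is shown, since transcripts and proteins were not used here.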

Additional observations from a re-analysis of the deposited data

How the results depend on the processing

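Under 17 alternatives per transcript (16 for Nanos2, which lies below the filter on dim genes), 224 of 252 values kept direction and side of the threshold. Nanos3 in both Pum2 comparisons, and Pum2 over input and IgG over input, kept them in all 17 (Nanos3 over IgG -1.31 to -1.20, over input -1.38 to -1.25; Pum2 over input 0.86 to 0.99, IgG over input 0.55 to 0.68). Replicate numbers are shared by the groups. Same-numbered arrays deviated together with r of 0.00 to 0.14, over 0.1 in 3 of 9 pairs, and other pairs with r of -0.13 to 0.04. Of 18 pairs of an array with another group, 16 were matched best by the array's own number. This is a hint from the data only. The labels state no pairing, and whether the samples are paired is not settled here. With the replicate block Nanos1 over input was no longer called (0.35, adjusted p = 0.0588) and Pum3 over IgG was (0.27, adjusted p = 0.0402); counts of calls were 6865, 7765 and 4026 against 6815, 7688 and 3984 without. Pum2 over IgG lost its call with only the compared groups in the fit (0.30) or centring on the brighter genes (0.22); leaving out single arrays gave 0.25 to 0.37. Nanos1 over input lost it with only the compared groups (0.35), quantile normalization (0.29), centring (0.30) or all features in the fit (0.35); single arrays left out gave 0.23 to 0.43. Nanos1 over IgG gained a call among brighter genes only (0.30) and without Input replicate 1 (0.30); single arrays left out gave 0.21 to 0.35. For Pum3 over IgG they gave 0.17 to 0.38. Uncalled values that changed sign were those of Nanos2 over IgG (-0.16 to 0.00), Pum3 in IgG over input (-0.17 to 0.04) and Nanos1 in IgG over input (-0.07 to 0.14). Counts of calls moved by over 1.5 times, to 11358 over IgG and 11920 over input, with all 41345 features in the fit, which tests more features. As shares of the features tested these were 27.5% and 28.8%, below the 30.7% and 34.7% of the main fit. Calls over IgG were higher in 63.0% of cases, in 49.7% with centring and in 53.5% with quantile normalization. With all features in the fit the share was 42.9%, so that most calls were lower there. The cause of these shifts was not tested. No read depth applies, and no signal over background is given for single features.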
